A study of Homo sapiens with 12 samples.

Results

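The late sterol route turns squalene into cholesterol, and 9 of its enzyme genes are described here across human bronchial epithelial cells that carry 3 forms of EGFR at 2 oxygen levels. The genes SQLE, CYP51A1, MSMO1, SC5D, LSS, TM7SF2, NSDHL, EBP and DHCR7 were chosen by name, older symbols included, and every probe annotated to them was taken. They are 9 of the 20046 genes with a named probe, and their 15 probes are among 47323 on the array. All 15 probes passed the filter on low signal, and all 9 genes were among the 11926 tested. The enzymes of SQLE, CYP51A1, MSMO1 and SC5D use molecular oxygen as a substrate, and these 4 genes were set against the other 5.

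RNA was read on 12 Illumina bead arrays, with 2 arrays in each of 6 groups. The cells are HBEC, a human bronchial epithelial cell line grown in serum-free keratinocyte medium with added EGF and pituitary extract, and each line stably expressed 1 form of EGFR. The groups are L858R EGFR under hypoxia, E746-E750 EGFR under hypoxia, WT EGFR under hypoxia, L858R EGFR in air, E746-E750 EGFR in air and WT EGFR in air. Hypoxic cells spent 24 h at 0.1% oxygen, aerobic cells were kept at 21% oxygen, and all were grown at the same carbon dioxide level. L858R is a kinase-domain substitution found in lung cancer, and E746-E750 is spelled as in the labels. The labels give neither the promoter that drives EGFR nor whether a line is 1 clone, so a difference between lines cannot be told apart from a difference between clones. Whether both samples of a group were grown as separate cultures is not stated either, so every p-value here is set against a spread between 2 samples that may be technical only.

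Cholesterol synthesis begins in the mevalonate pathway, which builds squalene from acetyl-CoA. Squalene is then epoxidised, closed into the ring system of lanosterol, and trimmed, isomerised and reduced to cholesterol, with several of these steps drawing on oxygen and on electrons from NADPH or NADH. Transcription of the route is driven mainly by SREBP factors, which sterol-rich membranes hold in the endoplasmic reticulum through the INSIG proteins, and a further check falls on the enzymes themselves, among them squalene epoxidase, through regulated breakdown.

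Promoters of sterol genes commonly carry a sterol regulatory element together with CCAAT boxes, which bind the factor NF-Y, and GC boxes, which bind SP1. RefSeq promoter windows in build GRCh38.p14 were matched for 8 of the 9 genes, with 10 start sites in all, and the 250 bases before each start were searched on both strands. The letters CCAAT were present in 8 of the 10 windows (7 of 8 genes), against 32% of 35116 windows of the same length. GGGCGG was present in 8 of 10 (7 of 8 genes), against 42.6%. The letters GCGTG, a core of hypoxia response elements, were present in 9 of 10 windows (7 of 8 genes), against 32.2% of all windows. The other core, ACGTG, was in 3 of 10 (2 of 8 genes), against 18.5%. TCACNCCAC, one spelling of a sterol regulatory element, was in 0 of 10, against 0.883%. These matches describe letters only. The windows of MSMO1, NSDHL and EBP are shown because they hold the most CCAAT matches of the 10 and belong to genes called in a comparison between a mutant line and WT. They are written 5′ to 3′ on the strand of the gene, with capitals marking CCAAT or its complement ATTGG.
MSMO1, chr4:165327419-165327668, plus strand: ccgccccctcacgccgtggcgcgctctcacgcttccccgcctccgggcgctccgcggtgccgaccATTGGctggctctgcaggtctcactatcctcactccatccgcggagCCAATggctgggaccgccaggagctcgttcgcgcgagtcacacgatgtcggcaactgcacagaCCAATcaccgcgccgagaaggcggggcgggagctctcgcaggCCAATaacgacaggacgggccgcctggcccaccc
NSDHL, chrX:152830813-152831062, plus strand: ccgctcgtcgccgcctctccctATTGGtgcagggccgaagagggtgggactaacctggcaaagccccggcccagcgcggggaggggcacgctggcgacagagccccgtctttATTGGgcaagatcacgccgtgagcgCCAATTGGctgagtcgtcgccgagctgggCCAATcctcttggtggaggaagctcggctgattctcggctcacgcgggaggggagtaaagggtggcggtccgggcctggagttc
EBP, chrX:48521558-48521807, plus strand: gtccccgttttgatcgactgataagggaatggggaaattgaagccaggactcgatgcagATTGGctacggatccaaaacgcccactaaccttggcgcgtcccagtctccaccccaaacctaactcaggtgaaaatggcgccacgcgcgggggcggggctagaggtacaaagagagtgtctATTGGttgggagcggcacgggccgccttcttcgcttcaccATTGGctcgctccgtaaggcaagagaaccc
MSMO1 had 4 matches, NSDHL 5 and EBP 3. In NSDHL a CCAAT and an ATTGG share letters, so 2 of its matches overlap. LSS, TM7SF2 and SC5D had 1 match per window, and the window of CYP51A1 had 0. Of the DHCR7 windows, chr11:71448394-71448643 had 2 and chr11:71449044-71449293 had 0.

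Depth on these arrays is set by signal and by the number of arrays, of which 2 per group limit the precision. The arrays detected between 14159 and 18229 probes, fewest on the second L858R hypoxic array. Agreement between probes was also uneven. Among 3213 genes with at least 2 probes, the share whose probes moved apart by more than 1 log2 unit was 18.1% and 45.8% on the L858R hypoxic arrays, 20.2% and 27.3% on the E746-E750 hypoxic arrays, and 3.08% and 2.68% on the WT hypoxic arrays, against at most 0.0311% on any aerobic array. The 2 L858R hypoxic arrays correlated at 0.849 over genes, below the 0.983 to 0.997 of the other pairs. Results of the 9 genes on the mutant hypoxic groups are therefore given with further probes and with the second array of each group left out. Other genes on these groups were fitted on all 12 arrays only. Of the airway basal markers with a named probe, CDH1, ITGA6, KRT14 and KRT5 were detected on all 12 arrays. Under hypoxia KRT14, a basal keratin, fell by 1.25 ± 0.29 in L858R cells, adjusted p 0.013, with differences of -0.64 in E746-E750 and -0.74 in WT cells that did not pass. KRT5, ITGA6 and CDH1 differed by -0.40, 0.49 and 0.20 in L858R, 0.23, 0.13 and 1.42 in E746-E750, and -0.49, -0.01 and 0.38 in WT cells, none called. The summed linear intensity of the 4 basal markers under hypoxia and in air was 14900 to 17400 and 17900 to 19600 in L858R cells. It was 24300 to 25700 and 19300 to 20200 in E746-E750 cells, and 15500 to 15900 and 18500 to 20400 in WT cells. The leukocyte, endothelial, alveolar and mesenchymal genes CD3E, PTPRC, CDH5, VWF, SFTPA1, SFTPC and COL3A1 were detected on none, PECAM1 and SFTPB on 1 array, COL1A1 on 2, COL1A2 on 3, LYZ on 7 and CD14 on 12. PDGFRB, a mesenchymal marker, was detected on both L858R hypoxic arrays, at 6.48 and 7.18, and on no others. It passed the filter through those 2 arrays alone, so no test of it is given. The summed linear intensity of the 4 mesenchymal markers was 306 to 397 on the L858R hypoxic arrays, 314 to 316 on the E746-E750 hypoxic arrays and 286 to 301 on the WT hypoxic arrays, and 277 to 310 over the aerobic arrays, and its part in the member values was not tested. EGFR probe ILMN_1798975 read between 9.59 and 11.12 over the 12 arrays, with no difference between lines that passed the test. A second EGFR probe, ILMN_1696521, read lower in the mutant lines, at 7.69 to 8.84 on their 8 arrays, against 9.22 to 10.62 on the 4 WT arrays. Its differences from WT of -2.30 in L858R and -2.55 in E746-E750 cells under hypoxia passed, adjusted p 0.00155 and 9e-04, and those of -1.0 and -1.19 in air did not. The hypoxia-induced genes tested as a check on the labels were called up for 6 of 6 in each line, against 16.1% of all genes in L858R, 16% in E746-E750 and 5.37% in WT cells.

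**Figure D1:**
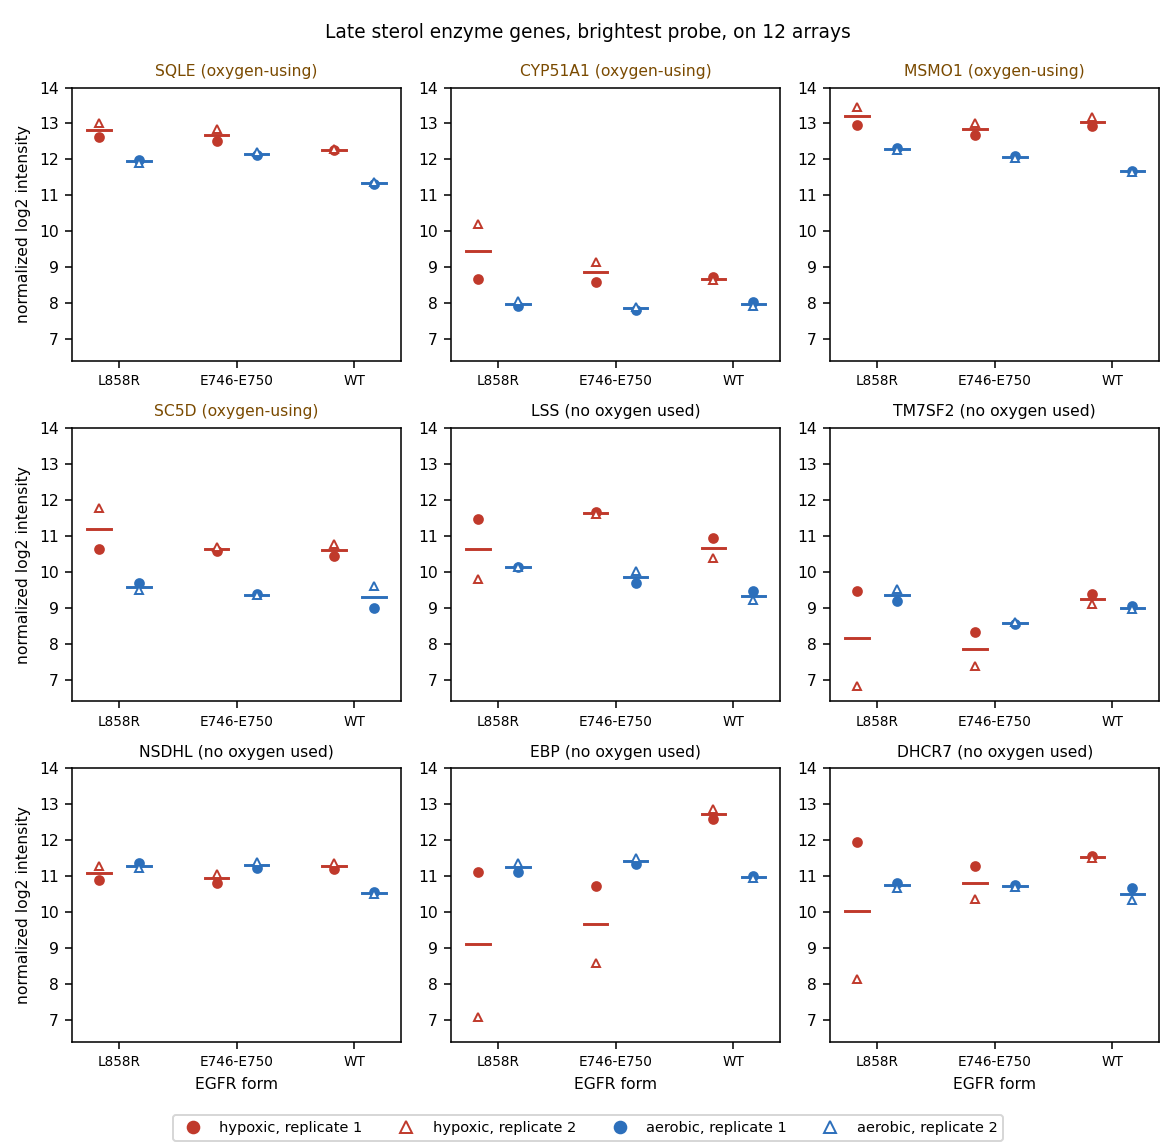
Normalized log2 intensity (vertical axis) of the brightest probe of each of the 9 genes, with the EGFR forms along the horizontal axis, hypoxic arrays in red to the left of aerobic arrays in blue. Points are single arrays, circles replicate 1 and triangles replicate 2, and bars are group means of 2 arrays. In WT cells every hypoxic point lies above both aerobic points of the same gene, and in the L858R hypoxic group the triangle lies far below the circle for EBP, DHCR7 and TM7SF2.

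Under hypoxia the 9 genes read higher in WT cells, TM7SF2 excepted when arrays were centred on their medians. All 9 genes had both hypoxic arrays above both aerobic arrays, where 32.1% of all tested genes did so, and 4 of the 9 were called up, where 5.37% of all genes were. The median difference of the 9 genes was 1.03 log2 units, against -0.03 over all genes tested. In both mutant lines the oxygen-using genes were again higher under hypoxia on their brightest probes, while by the mean of 2 arrays most of the others were not. For L858R this rested on the second hypoxic array. On the first L858R hypoxic array 3 of the 5 others were above the line's aerobic mean, and on the second 1 of 5. On the E746-E750 hypoxic arrays these numbers were 2 and 1. Another probe of SQLE and another of MSMO1 gave the opposite direction in both mutant lines, as described with those genes. In L858R cells 4 of 9 genes were called up, all of them oxygen-using, against 16.1% of all genes, and in E746-E750 cells 4 of 9 were called up, 3 oxygen-using genes and LSS, against 16% of all genes. A gene is called where limma's adjusted p is under 0.05 over the 11926 genes, and all differences are on the scale of normalized log2 intensity, hypoxic minus aerobic.

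SQLE encodes squalene epoxidase, the first oxygen-using step and a rate-controlling one. Its brighter probe, ILMN_2041293, read 12.63 and 13.00 on the L858R hypoxic arrays, against 11.99 and 11.91 on the L858R aerobic arrays. It read 12.52 and 12.85 on the E746-E750 hypoxic arrays, against 12.13 and 12.20 on the E746-E750 aerobic arrays, and 12.26 and 12.28 on the WT hypoxic arrays, against 11.32 and 11.38 on the WT aerobic arrays. Hypoxic and aerobic arrays did not overlap in any line. SQLE rose under hypoxia by 0.87 ± 0.16 log2 units (SE) in L858R cells, with an adjusted p of 0.00534. In E746-E750 cells it rose by 0.53 ± 0.16, adjusted p 0.0446, and in WT cells by 0.92 ± 0.16, adjusted p 0.00783, which is 1.89-fold. The call in L858R cells was kept when any of the 12 arrays was left out, but was lost under 4 of 12 other settings, which were the mean of probes, the next brightest probe, only the groups compared and array weights. The E746-E750 call was kept with 3 of the 12 arrays left out in turn. The WT call was kept with 8 and was lost when any 1 of the 4 WT arrays was left out.

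The second SQLE probe, ILMN_1772241, gave another picture in the mutant lines. It read 10.84 and 6.95 on the L858R hypoxic arrays, against 10.01 and 10.04 on the L858R aerobic arrays, so that the hypoxic arrays lay on both sides of the aerobic ones. It read 10.11 and 8.78 on the E746-E750 hypoxic arrays, against 10.21 and 10.41 on the E746-E750 aerobic arrays, where the hypoxic arrays were lower. In WT cells it moved with the first probe, at 10.22 and 10.51 on the hypoxic arrays, against 9.35 and 9.30 on the aerobic arrays. The 3 differences, -1.13 in L858R, -0.87 in E746-E750 and 1.04 in WT cells, did not pass the test. The direction of SQLE in hypoxic mutant cells thus rested on the probe read.

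CYP51A1 encodes the cytochrome P450 that removes a methyl group from lanosterol at the cost of oxygen. It read 8.67 and 10.21 on the L858R hypoxic arrays, against 7.91 and 8.07 on the L858R aerobic arrays. It read 8.59 and 9.15 on the E746-E750 hypoxic arrays, against 7.81 and 7.90 on the E746-E750 aerobic arrays, and 8.73 and 8.64 on the WT hypoxic arrays, against 8.04 and 7.93 on the WT aerobic arrays. Every hypoxic array was above every aerobic array of all 3 lines, and the second L858R hypoxic array was the highest of the 12. CYP51A1 rose by 1.45 ± 0.41 in L858R cells, adjusted p 0.0298. The differences of 1.02 ± 0.41 in E746-E750 cells, adjusted p 0.104, and of 0.70 ± 0.41 in WT cells, adjusted p 0.351, did not pass the test on all 12 arrays. The L858R call was kept with 4 of the 12 arrays left out in turn. With the second array of both mutant hypoxic groups left out, the L858R difference was 0.68 ± 0.12, adjusted p 0.000459, and without the first L858R hypoxic array it was 2.22 ± 0.19, adjusted p 1.67e-06.

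MSMO1 encodes the oxidase that attacks the methyl groups at carbon C4 of the ring, and it has 3 probes. ILMN_1720889, the brightest, is annotated to the transcript NM_001017369. It read 12.97 and 13.47 on the L858R hypoxic arrays, against 12.32 and 12.27 on the L858R aerobic arrays. It read 12.69 and 13.00 on the E746-E750 hypoxic arrays, against 12.10 and 12.05 on the E746-E750 aerobic arrays, and 12.94 and 13.17 on the WT hypoxic arrays, against 11.69 and 11.65 on the WT aerobic arrays. All 6 hypoxic arrays were above all 6 aerobic ones. On this probe MSMO1 rose by 0.92 ± 0.19 in L858R cells, adjusted p 0.00734, by 0.77 ± 0.19 in E746-E750 cells, adjusted p 0.0167, and by 1.39 ± 0.19 in WT cells, adjusted p 0.00212, or 2.62-fold. The WT call was the most stable among the members, kept with each of 12 arrays left out and under 13 of 13 other settings.

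ILMN_1689842, annotated to the other MSMO1 transcript, NM_006745, moved the opposite way in the mutants. It read 8.05 and 6.59 on the L858R hypoxic arrays, the second of which did not detect it, against 10.93 and 10.80 on the L858R aerobic arrays. It read 7.13 and 7.03 on the E746-E750 hypoxic arrays, against 10.49 and 10.74 on the E746-E750 aerobic arrays. In WT cells it read 11.95 and 12.17 on the hypoxic arrays, against 9.84 and 9.98 on the aerobic arrays. The 2 WT hypoxic arrays were the highest of the 12 and the 4 mutant hypoxic arrays the lowest. On this probe MSMO1 fell by 3.55 ± 0.38 in L858R cells, where 1 of 2 hypoxic arrays detected it, adjusted p 0.00035 over all probes, and fell by 3.54 ± 0.38 in E746-E750 cells, adjusted p 0.000306. In WT cells it rose by 2.15 ± 0.38, adjusted p 0.00936. The third probe, ILMN_2402499, is annotated to the same transcript as the brightest one and read between 6.80 and 7.99 over the 12 arrays, with differences of -0.02 in L858R, -0.12 in E746-E750 and 0.70 in WT cells that did not pass the test.

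**Figure D2:**
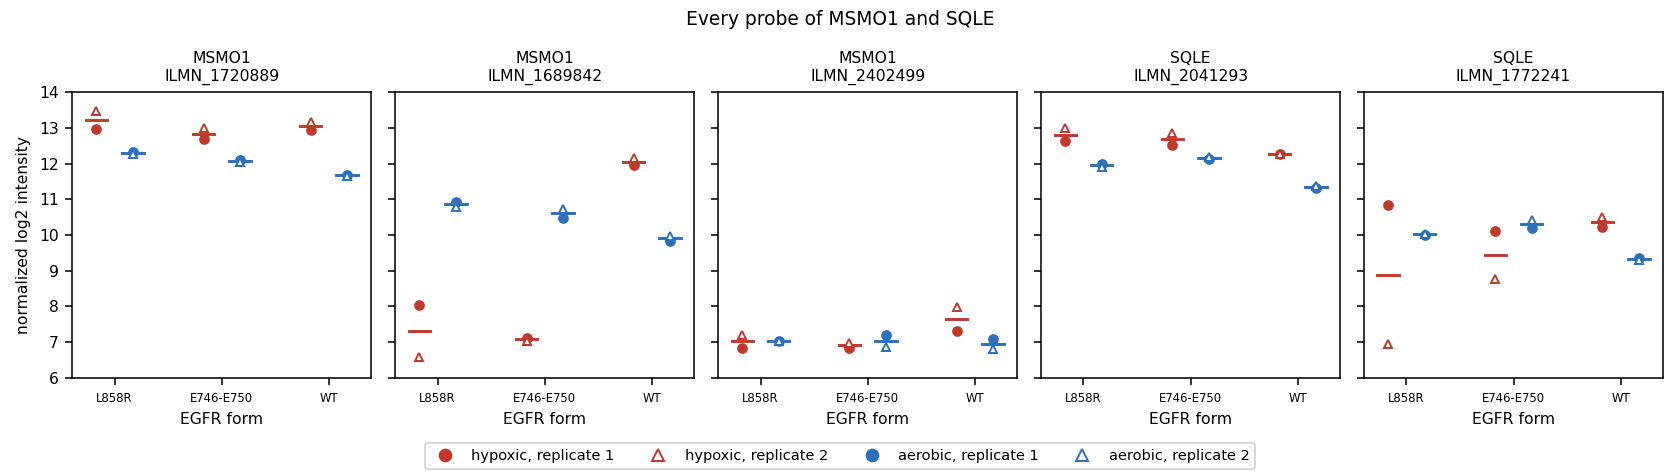
Normalized log2 intensity (vertical axis) of every probe of MSMO1 and SQLE, by EGFR form, hypoxic arrays in red and aerobic arrays in blue, with circles for replicate 1, triangles for replicate 2 and bars for group means of 2 arrays. In WT cells all 5 probes are higher under hypoxia, whereas in the mutant lines ILMN_1689842 drops to between 6.59 and 8.05 while ILMN_1720889 of the same gene stays at 12.69 or above.

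SC5D encodes the desaturase that places a double bond in the ring just before the last reduction. It read 10.62 and 11.78 on the L858R hypoxic arrays, against 9.68 and 9.50 on the L858R aerobic arrays. It read 10.59 and 10.68 on the E746-E750 hypoxic arrays, against 9.38 and 9.35 on the E746-E750 aerobic arrays, and 10.43 and 10.77 on the WT hypoxic arrays, against 8.99 and 9.61 on the WT aerobic arrays. The hypoxic arrays were higher in every line without overlap. SC5D rose by 1.61 ± 0.35 in L858R cells, adjusted p 0.0095, by 1.27 ± 0.35 in E746-E750 cells, adjusted p 0.0268, and by 1.29 ± 0.35 in WT cells, adjusted p 0.0424. It was thus the only gene with 1 probe that was called up in all 3 lines, and the WT call was kept with 2 of the 12 arrays left out in turn. The L858R difference was 1.03 ± 0.22 without the second L858R hypoxic array, adjusted p 0.00246.

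LSS encodes lanosterol synthase, which closes the rings and uses no oxygen. Its brightest probe, ILMN_1715024, read 11.47 and 9.81 on the L858R hypoxic arrays, against 10.12 and 10.12 on the L858R aerobic arrays. It read 11.65 and 11.61 on the E746-E750 hypoxic arrays, against 9.69 and 10.02 on the E746-E750 aerobic arrays, and 10.95 and 10.39 on the WT hypoxic arrays, against 9.47 and 9.21 on the WT aerobic arrays. Only in L858R cells did the hypoxic and aerobic arrays overlap, through the low second hypoxic array. LSS rose by 1.77 ± 0.45 in E746-E750 cells, adjusted p 0.0193, or 3.42-fold. The differences of 0.52 ± 0.45 in L858R cells, adjusted p 0.409, and of 1.33 ± 0.45 in WT cells, adjusted p 0.0931, did not pass. A second LSS probe, ILMN_1687863, annotated to NM_001001438, was not above background on either E746-E750 aerobic array or on either WT aerobic array. Under hypoxia it was at least 2.71-fold higher in E746-E750 cells, adjusted p 0.00107, and at least 1.95-fold higher in WT cells, adjusted p 0.0144. In L858R cells it read 8.03 and 7.34 on the hypoxic arrays, against 6.54 and 6.5 on the aerobic arrays, and rose by 1.17 log2 units, adjusted p 0.00474. A bound of this kind takes the lowest detected signal of an array in place of the undetected probe. The third LSS probe, ILMN_1658271, differed by 0.01 in L858R, 0.27 in E746-E750 and 0.74 in WT cells, and none of these passed.

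TM7SF2 encodes a sterol reductase that acts after the CYP51A1 step. It read 9.46 and 6.83 on the L858R hypoxic arrays, against 9.20 and 9.51 on the L858R aerobic arrays. It read 8.32 and 7.37 on the E746-E750 hypoxic arrays, against 8.56 and 8.60 on the E746-E750 aerobic arrays, and 9.38 and 9.10 on the WT hypoxic arrays, against 9.04 and 8.97 on the WT aerobic arrays. TM7SF2 was the member with the smallest WT response. Its differences of -1.21 ± 0.69 in L858R, -0.73 ± 0.69 in E746-E750 and 0.23 ± 0.69 in WT cells did not pass the test, and the WT value was -0.03 when arrays were centred on their medians.

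NSDHL encodes the dehydrogenase that follows MSMO1 in removing the methyl groups. It read 10.90 and 11.30 on the L858R hypoxic arrays, against 11.36 and 11.24 on the L858R aerobic arrays. It read 10.82 and 11.07 on the E746-E750 hypoxic arrays, against 11.24 and 11.39 on the E746-E750 aerobic arrays, and 11.19 and 11.37 on the WT hypoxic arrays, against 10.55 and 10.51 on the WT aerobic arrays. The WT aerobic arrays were the lowest of the 12, and the other 10 arrays lay within 10.82 and 11.39. NSDHL rose in WT cells by 0.75 ± 0.17, adjusted p 0.0229, or 1.68-fold. Its differences of -0.20 ± 0.17 in L858R cells, adjusted p 0.408, and of -0.38 ± 0.17 in E746-E750 cells, adjusted p 0.141, did not pass, and the E746-E750 value was 0.10 with median centring.

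EBP encodes the isomerase that moves a double bond within the ring, and it had the widest spread of any member. It read 11.13 and 7.08 on the L858R hypoxic arrays, against 11.13 and 11.37 on the L858R aerobic arrays. It read 10.74 and 8.58 on the E746-E750 hypoxic arrays, against 11.33 and 11.52 on the E746-E750 aerobic arrays, and 12.58 and 12.88 on the WT hypoxic arrays, against 11.00 and 10.96 on the WT aerobic arrays. The WT hypoxic arrays stood above all others, and the second arrays of both mutant hypoxic groups stood below all others. Its differences were -2.14 ± 1.11 in L858R cells, adjusted p 0.182, -1.77 ± 1.11 in E746-E750 cells, adjusted p 0.283, and 1.75 ± 1.11 in WT cells, adjusted p 0.399. With the second arrays of the mutant hypoxic groups left out, EBP differed by -0.12 ± 0.15 in L858R cells, adjusted p 0.523, and was lower by -0.69 ± 0.15 in E746-E750 cells, adjusted p 0.00187.

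DHCR7 encodes the reductase that completes cholesterol from its last precursor. Its brighter probe, ILMN_2165867, read 11.94 and 8.13 on the L858R hypoxic arrays, against 10.82 and 10.68 on the L858R aerobic arrays. It read 11.29 and 10.36 on the E746-E750 hypoxic arrays, against 10.75 and 10.70 on the E746-E750 aerobic arrays, and 11.57 and 11.51 on the WT hypoxic arrays, against 10.68 and 10.33 on the WT aerobic arrays. In each mutant line 1 hypoxic array was above the aerobic arrays and 1 below. The differences of -0.71 ± 0.95 in L858R, 0.10 ± 0.95 in E746-E750 and 1.03 ± 0.95 in WT cells did not pass. Without the second arrays of the mutant hypoxic groups, the L858R difference was 1.19 ± 0.14, adjusted p 1.72e-05, and the E746-E750 difference 0.57 ± 0.14, adjusted p 0.00484. The second DHCR7 probe, ILMN_1815626, spread in the same way, from 7.40 on the second L858R hypoxic array to 12.01 on the first.

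**Figure D3:**
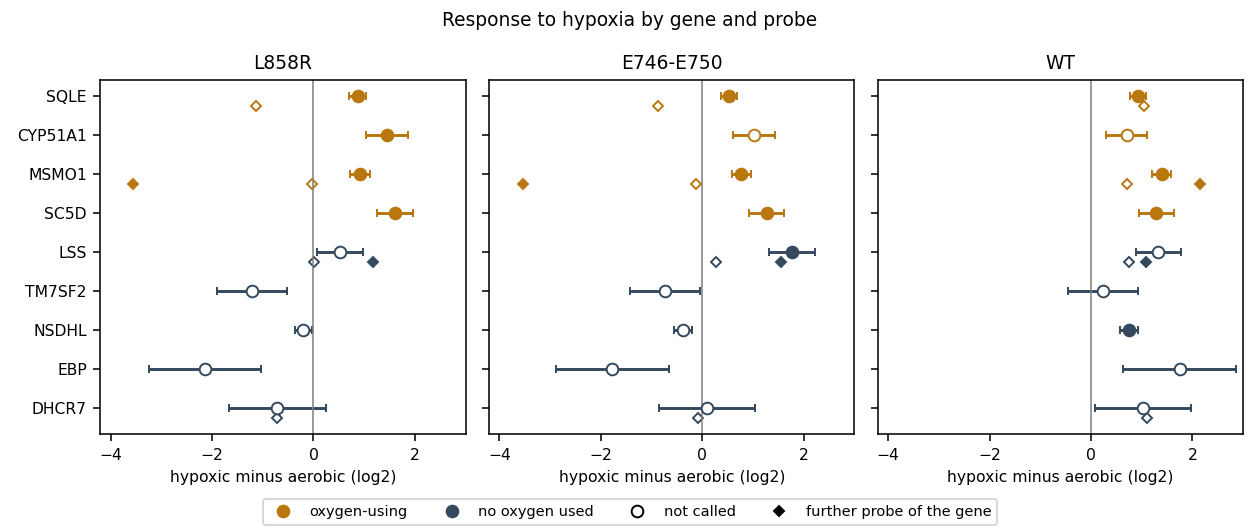
Difference in log2 intensity, hypoxic minus aerobic (horizontal axis), for each gene (rows) in L858R, E746-E750 and WT cells. Circles are the brightest probe with its SE, orange for oxygen-using enzymes and dark blue for the others, filled where called, and diamonds are further probes of the same gene. All values lie above 0 in WT cells (with median centring TM7SF2 is at -0.03), while in both mutant lines ILMN_1689842 of MSMO1 lies below -3.5.

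The large errors in WT cells came from a spread that the model shares over all groups. Fitted on the 8 aerobic and WT hypoxic arrays alone, where the mutant hypoxic arrays do not enter, 8 of 9 genes were called up in WT cells, against 20.2% of all genes. EBP then rose by 1.75 ± 0.12, adjusted p 1.84e-07, DHCR7 by 1.03 ± 0.12, adjusted p 1.19e-05, LSS by 1.33 ± 0.17, adjusted p 2.88e-05, and CYP51A1 by 0.70 ± 0.10, adjusted p 8.56e-05. TM7SF2, at 0.23 ± 0.12 and adjusted p 0.139, was the gene that did not pass. In the fit on 12 arrays the WT count was 1, MSMO1, when any WT array was left out, and it was 2 on the authors' processed values.

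The gap between oxygen-using genes and the others was wider in both mutant lines than in WT cells, a difference that was not tested as such. In WT cells the median difference was 1.11 log2 units for the 4 oxygen-using genes and 1.03 for the 5 others, 0.07 apart. In L858R cells the medians were 1.19 and -0.71, which is 1.90 apart, and in E746-E750 cells 0.89 and -0.38, which is 1.27 apart. Array by array, the gap between the 2 medians was 0.57 and 4.20 on the L858R hypoxic arrays, 0.94 and 1.48 on the E746-E750 hypoxic arrays, and -0.05 and 0.19 on the WT hypoxic arrays. The gap was positive on all 4 mutant hypoxic arrays, and on the second L858R array it came mainly from the others, whose median stood at -2.52 from the line's aerobic mean, while that of the oxygen-using genes stood at 1.68. With the next brightest probe of each gene that has one, the E746-E750 gap was 0.45. In L858R cells the next brightest probes of SQLE and MSMO1 differed by -1.13 and -3.55, against 0.87 and 0.92 on the brightest ones. Those of LSS and DHCR7 differed by 1.17 and -0.71, against 0.52 and -0.71. The L858R split thus also depended on the probe read. The part of the discordant probes in this split was not tested.

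**Figure D4:**
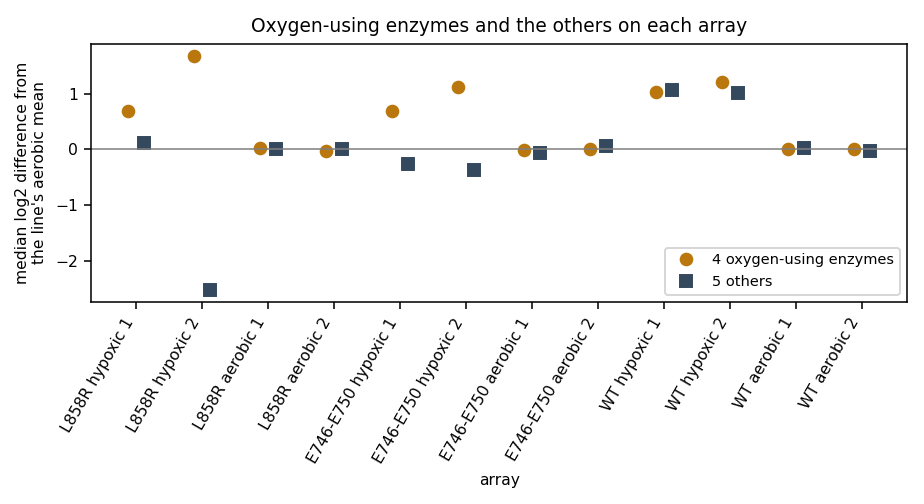
Median log2 difference from the line's aerobic mean (vertical axis) on each of the 12 arrays (horizontal axis), orange circles for the 4 oxygen-using genes and dark squares for the 5 others, brightest probes. The 2 medians lie within 0.19 of each other on the WT hypoxic arrays and 0.57 to 4.20 apart on the mutant hypoxic arrays.

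The mutant calls leaned on single arrays. Of the 4 L858R calls, SQLE alone was kept without the second L858R aerobic array. DHCR7 in L858R cells differed by -2.61 without the first L858R hypoxic array and by 1.19 without the second. The 4 E746-E750 calls were all lost when 1 of the E746-E750 aerobic arrays or the second hypoxic one was left out. With the 4 L858R arrays fitted alone, limma called 0 of 9 genes (3 at an unadjusted p under 0.05), but also 0 of all 11926. That fit therefore cannot tell the members from other genes. With the second array of both mutant hypoxic groups left out, all 4 oxygen-using genes, LSS and DHCR7 were called up in each mutant line, against 27.6% of all genes in L858R and 31.2% in E746-E750 cells. NSDHL was then lower in both, at -0.40 ± 0.13 in L858R cells, adjusted p 0.0181, and -0.50 ± 0.13 in E746-E750 cells, adjusted p 0.00498, where 25.7% and 23.3% of all genes were called down. The single remaining array of each group is there assumed to vary as the others do.

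Further probes of the members gave the direction of the brightest probe in 3 of 6 cases in L858R cells, in 2 of 6 in E746-E750 cells and in 6 of 6 in WT cells. Over all called genes with a second probe, the direction was shared by 75.1% in L858R, 75.1% in E746-E750 and 93.6% in WT cells. The distance between the 2 brighter MSMO1 probes, each set against its own mean distance over the aerobic arrays, was 3.37 and 5.33 on the L858R hypoxic arrays, 4.02 and 4.42 on the E746-E750 hypoxic arrays, and -0.56 and -0.55 on the WT hypoxic arrays. For SQLE it was -0.14 and 4.12 on the L858R hypoxic arrays, 0.48 and 2.14 on the E746-E750 hypoxic arrays, and 0.11 and -0.16 on the WT hypoxic arrays. The MSMO1 probes parted on all 4 mutant hypoxic arrays, the SQLE probes mainly on the second array of each group.

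In air, the route read somewhat higher in the mutant lines than in WT cells, without a call on all 12 arrays. Of the 9 genes, 6 had both L858R arrays above both WT arrays, against 26.9% of all genes, and 6 had both E746-E750 arrays above both WT arrays, against 26.5%. For E746-E750, CYP51A1 and TM7SF2 had both arrays below both WT arrays, against 32.6% of all genes. The median difference was 0.35 log2 units for L858R minus WT and 0.41 for E746-E750 minus WT, against 0.00 and -0.02 over all genes. limma called 0 of 9 genes in either comparison, against 0.0252% of all genes for L858R and 0.277% for E746-E750, while 3 genes for L858R and 2 for E746-E750 had an unadjusted p under 0.05. With median centring the E746-E750 median was 0.12, where the median of all genes was -0.22, and SC5D and DHCR7 were then at -0.31 and -0.12.

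NSDHL and SQLE had the lowest p-values in both comparisons, while the largest L858R difference was that of LSS, at 0.78 ± 0.45. NSDHL averaged 11.30 ± 0.09 in L858R and 11.32 ± 0.10 in E746-E750 aerobic cells, and 10.53 ± 0.03 in WT aerobic cells (SD, n = 2 each). Its difference from WT was 0.77 ± 0.17 in L858R cells, adjusted p 0.216, and 0.79 ± 0.17 in E746-E750 cells, adjusted p 0.129. SQLE averaged 11.95 ± 0.06 in L858R and 12.16 ± 0.05 in E746-E750 aerobic cells, and 11.35 ± 0.04 in WT aerobic cells (SD, n = 2 each), with differences of 0.60 ± 0.16, adjusted p 0.401, and 0.81 ± 0.16, adjusted p 0.102. The arrays of these genes did not overlap between either mutant line and WT. On the 8 aerobic and WT hypoxic arrays alone, SQLE, MSMO1, LSS and NSDHL were called higher in L858R cells, against 5.62% of all genes, with adjusted p-values of 0.00156, 0.00205, 0.0108 and 0.000671. In the same fit SQLE, NSDHL, MSMO1 and EBP were called higher in E746-E750 cells, against 7.43% of all genes, and TM7SF2 was called lower, against 10.3%. CYP51A1 differed by 0.00 in L858R and -0.13 in E746-E750 cells and SC5D by 0.29 and 0.06, none of which passed the test on 12 arrays.

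Under hypoxia few members were called between the mutant lines and WT cells on all 12 arrays. For L858R 2 of 9 were called, against 21.8% of all genes. The SE was as wide as 1.11 for EBP and 0.95 for DHCR7, so members without a call are not shown to be alike. SQLE was higher in L858R hypoxic cells than in WT hypoxic cells by 0.55 ± 0.16 on its brighter probe, adjusted p 0.0459, where 13.6% of all genes were called up. Its second probe differed by -1.47 ± 1.01 and the mean of both by -0.46, neither called, and the brighter probe by 0.36 ± 0.14 without the second L858R hypoxic array, adjusted p 0.0707. EBP averaged 9.11 in L858R hypoxic cells and 12.73 in WT hypoxic cells, a difference of -3.62 ± 1.11, adjusted p 0.0491, where 8.14% were called down. That difference was -5.64 ± 0.58 without the first L858R hypoxic array, adjusted p 6.79e-06, and -1.60 ± 0.58 without the second, adjusted p 0.0471. Both calls are close to the threshold, and neither was kept when any aerobic or WT hypoxic array was left out. In E746-E750 cells 0 of 9 genes were called by limma, against 17.8% of all genes, and 2 had an unadjusted p under 0.05, of which EBP, at 9.66 in E746-E750 and 12.73 in WT hypoxic cells, had an adjusted p of 0.0933. The NM_006745 probe of MSMO1 was lower than in WT hypoxic cells by -4.74 ± 0.38 in L858R cells, with 1 of 2 arrays detecting it, adjusted p 0.000103, and by -4.98 ± 0.38 in E746-E750 cells, adjusted p 7.9e-05.

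The response to hypoxia itself was compared between lines as the mutant response minus the WT response. NSDHL was the only gene called on its brightest probe, by -0.94 ± 0.24 for L858R, adjusted p 0.0496, against 3.41% of all genes called down, and by -1.12 ± 0.24 for E746-E750, adjusted p 0.0276, against 2.96%. Both calls were lost when any array outside the L858R hypoxic group was left out, and the E746-E750 call was lost with median centring. The differences for the 4 oxygen-using genes lay between -0.47 and 0.75 for L858R and between -0.62 and 0.32 for E746-E750, with SE of 0.23 to 0.58, and none passed on all 12 arrays. EBP differed by -3.90 ± 1.58 for L858R, adjusted p 0.17, and by -3.52 ± 1.58 for E746-E750, adjusted p 0.238. With the second mutant hypoxic arrays left out, EBP differed by -1.87 ± 0.19, adjusted p 1.82e-05, for L858R and by -2.44 ± 0.19, adjusted p 2.39e-06, for E746-E750. In that fit MSMO1 also differed, by -0.72 ± 0.16, adjusted p 0.0039, for L858R and by -0.77 ± 0.16, adjusted p 0.00255, for E746-E750, where 38.3% and 38% of all genes were called. NSDHL was called there too, at -1.15 for L858R and -1.25 for E746-E750, and SQLE was called for E746-E750, at -0.56 ± 0.15, adjusted p 0.00976.

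Genes that feed or follow the late route were read from lists of the pathway. On all 12 arrays 2 of 7 early-route genes tested rose in WT cells under hypoxia, against 5.37% of all genes. HMGCS1, which commits acetyl-CoA to the pathway, rose by 2.08 ± 0.31, adjusted p 0.0031, and IDI1, an isomerase of the isoprenoid unit, by 2.53 ± 0.33, adjusted p 0.00177. On the 8 aerobic and WT hypoxic arrays MVK, MVD, FDPS and ACAT2 were also called up, at 1.49, 1.68, 0.61 and 0.57. Their adjusted p-values were 1.63e-07, 3.44e-06, 0.00152 and 0.000745. PMVK, phosphomevalonate kinase, was called lower there, at -0.34, adjusted p 0.0278. In that fit 20.2% of all genes were called up and 27.1% down. IDI1 also rose in E746-E750 cells, by 1.55 ± 0.33, adjusted p 0.00876. PMVK fell in L858R cells by 1.43 ± 0.36, adjusted p 0.0174, and fell in E746-E750 cells by 1.21 ± 0.36, adjusted p 0.0356. The median of the 7 was -0.07 in L858R, -0.16 in E746-E750 and 1.49 in WT cells, so the early genes, like the 9 late ones, had their highest median in WT cells. In L858R cells MVD read 10.69 and 6.89 on the hypoxic arrays, against 9.28 and 9.17 on the aerobic arrays. MVK read 8.66 and 5.92, against 7.72 and 7.90. The low values are those of the second L858R hypoxic array, and its part in the median was not tested. HMGCS1 read 13.02 and 14.08 on the L858R hypoxic arrays, against 13.00 and 12.76 on the L858R aerobic arrays, and 12.98 and 12.79 on the WT hypoxic arrays, against 10.94 and 10.67 on the WT aerobic arrays. The L858R aerobic arrays stood above the WT aerobic arrays, with a difference of 2.07 ± 0.31 that did not pass the test on 12 arrays, adjusted p 0.0778. It passed on the 8 aerobic and WT hypoxic arrays, adjusted p 1.91e-06, where 5.62% of all genes were called up.

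Of 3 further late enzymes tested, LBR, which carries a sterol reductase activity like that of TM7SF2, fell under hypoxia by 1.26 ± 0.14 in L858R, by 1.01 ± 0.14 in E746-E750 and by 0.67 ± 0.14 in WT cells, with adjusted p-values of 0.000478, 0.00129 and 0.0173, on a probe detected on 10 of 12 arrays. HSD17B7, a ketoreductase that works beside NSDHL, rose by 2.06 ± 0.26 in L858R cells, adjusted p 0.000769, and by 1.36 ± 0.26 in E746-E750 cells, adjusted p 0.00575, and differed by 0.40 ± 0.26 in WT cells, adjusted p 0.417. Of the 4 genes tested that pass electrons to the oxygen-using enzymes, limma called 0 in each line (0 at an unadjusted p under 0.05). Of all genes 28.7% were called in L858R, 27.1% in E746-E750 and 13.1% in WT cells. The medians of the 4 genes were 0.02 in L858R, -0.09 in E746-E750 and 0.14 in WT cells. POR, the reductase that serves CYP51A1 and squalene epoxidase, differed by -0.13 ± 0.37 in L858R, -0.78 ± 0.37 in E746-E750 and 0.27 ± 0.37 in WT cells. These are values of the brightest probes, and a second probe of CYB5A, a cytochrome b5, differed by -1.39 in L858R cells, adjusted p 0.0529.

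Among 8 regulators tested, INSIG1 and INSIG2, which retain the SREBP escort protein in the endoplasmic reticulum, rose in all 3 lines. INSIG1 rose by 0.91 ± 0.17 in L858R, adjusted p 0.00478, by 1.17 ± 0.17 in E746-E750, adjusted p 0.00138, and by 3.0 ± 0.17 in WT cells, adjusted p 3.53e-05. In air it was also higher than in WT cells, by 1.81 ± 0.17 in L858R cells, adjusted p 0.0346, and by 1.57 ± 0.17 in E746-E750 cells, adjusted p 0.0185. These values are of its brightest probe. A second INSIG1 probe, ILMN_1686989, detected on all 12 arrays, differed under hypoxia by 1.51 in L858R, 2.47 in E746-E750 and 2.48 in WT cells. On that probe the differences from WT in air were 0.48 in L858R and 0.53 in E746-E750 cells. INSIG2 rose by 2.29 ± 0.32 in L858R, 2.37 ± 0.32 in E746-E750 and 2.54 ± 0.32 in WT cells, with adjusted p-values of 0.00118, 0.000963 and 0.00142. SREBF1, which encodes an SREBP factor, rose on its brightest probe by 1.30 ± 0.38 in L858R cells, adjusted p 0.0342, and by 2.28 ± 0.38 in E746-E750 cells, adjusted p 0.00294. It differed by 1.14 ± 0.38 in WT cells, with an adjusted p of 0.0914 on 12 arrays and 1.35e-05 on the 8 aerobic and WT hypoxic arrays. Its second probe differed by -0.66 in L858R, -0.85 in E746-E750 and 0.64 in WT cells. In the counts, 3 of the 8 regulators rose in L858R and 4 in E746-E750 cells, the fourth being MBTPS1 on its brightest probe, and 2 rose and 1, MBTPS2, fell in WT cells. Of all genes 16.1% were called up in L858R and 16% in E746-E750 cells, and 5.37% up and 7.71% down in WT cells. A second MBTPS1 probe, detected on 9 of 12 arrays, was called down in both mutant lines, by limma's adjusted p of 0.00091 in L858R and 0.000233 in E746-E750 cells.

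**Figure D5:**
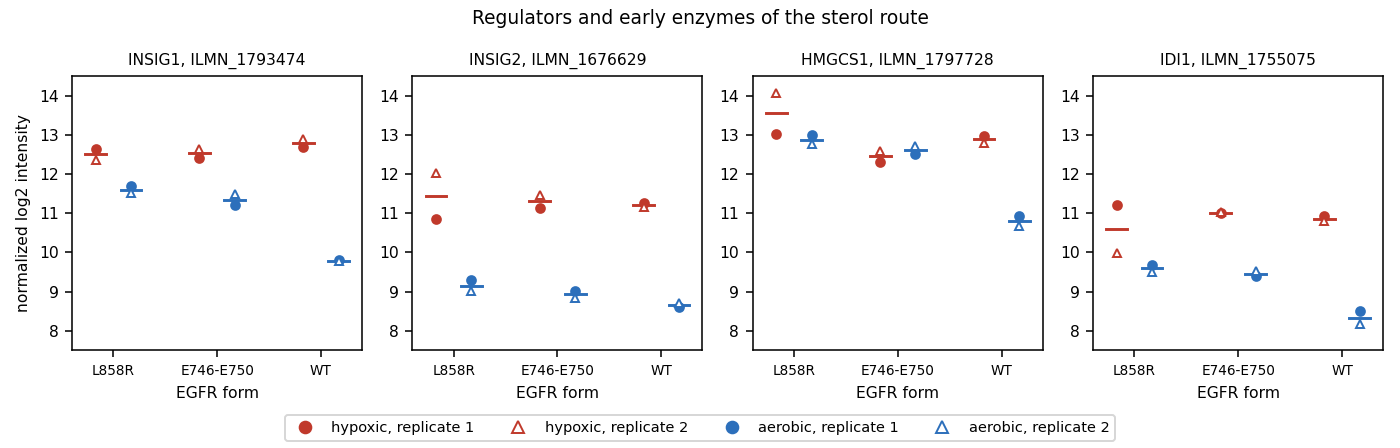
Normalized log2 intensity (vertical axis) of the regulators INSIG1 and INSIG2 and the early enzymes HMGCS1 and IDI1, by EGFR form, hypoxic arrays in red and aerobic arrays in blue, with circles for replicate 1, triangles for replicate 2 and bars for group means of 2 arrays. INSIG2 is higher under hypoxia in all 3 lines, while for HMGCS1 the WT aerobic arrays, at 10.94 and 10.67, stand below all the others.

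Of 9 genes of sterol uptake, storage and efflux, 2 rose in L858R cells, 3 in E746-E750 cells and 1 in WT cells, where 1 also fell. Of all genes 16.1%, 16% and 5.37% were called up in these lines, and 7.71% down in WT cells. NPC1, which moves cholesterol out of lysosomes, rose by 1.85 ± 0.13 in L858R, adjusted p 4.39e-05, and by 1.89 ± 0.13 in E746-E750 cells, adjusted p 3.44e-05. NPC2, its soluble partner, rose by 0.76 ± 0.23 in E746-E750 cells, adjusted p 0.0376. STARD4, a sterol carrier, is among the genes counted up in all 3 lines and is the 1 counted in WT cells. Its probe was detected on 7 of 12 arrays and read 6.83 to 7.84 on the hypoxic arrays, against 6.13 to 6.43 on the aerobic arrays. It passed the filter mainly through the hypoxic arrays, so its calls are not read as a result and no fold is given. MYLIP, a ligase that marks the LDL receptor for breakdown, fell by 0.74 ± 0.21 in WT cells, adjusted p 0.0495. Of 4 genes of sterol enzyme turnover, MARCHF6, the ligase that marks squalene epoxidase for breakdown, rose by 0.93 ± 0.17 in L858R cells, adjusted p 0.00498, and by 0.68 ± 0.17 in E746-E750 cells, adjusted p 0.0204. ERLIN1, an endoplasmic reticulum membrane protein, fell by 0.62 ± 0.15 in L858R cells, adjusted p 0.0161. In WT cells 0 of the 4 were called by limma (1 at an unadjusted p under 0.05), against 13.1% of all genes.

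Averaged over the 9 genes, each centred on its own mean over the 6 groups, the level was 0.07 in L858R hypoxic, 0.10 in E746-E750 hypoxic and 0.56 in WT hypoxic cells, and -0.05 in L858R aerobic, -0.19 in E746-E750 aerobic and -0.49 in WT aerobic cells. The WT groups thus held both ends of the order. Among 4375 other genes whose group means span at least 1 log2 unit, the 10 most like this pattern by Pearson correlation over the 6 group means were PI3 at 0.962, NOL3 at 0.952, FBXO32 at 0.949, CYBRD1 at 0.948, TBC1D8B at 0.945, TMEM107 at 0.944, GJB5 at 0.939, MAFF at 0.939, SLC2A14 at 0.936 and TNFAIP3 at 0.928. PI3, for example, averaged 7.84 in L858R hypoxic, 8.38 in E746-E750 hypoxic and 8.84 in WT hypoxic cells, and 7.44, 7.14 and 6.55 in the aerobic L858R, E746-E750 and WT cells. These values describe likeness over 6 points that share their arrays with the members.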

How the data were processed

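Biotinylated cRNA of 12 samples was hybridised to Illumina bead arrays, per the labels' protocols. The authors deposited a table of raw intensity per probe on a linear scale, without control probes or detection p-values, and a processed table of log2 values with a median of 3.11 on each array, whose background correction was not given in the sources used here. With limma 3.58.1 in R 4.3.3, background was removed from the intensities by normexp (offset 50), and arrays were quantile normalized on the log2 scale. neqc could not be fitted without detection p-values.

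The noise peak of each array was found with a density of bandwidth 0.02 log2 and reflected at its mode, and a probe above its percentile 99 was taken as detected. The filter kept the 21261 probes detected on 2 or more of the 12 arrays, 16023 of them with 1 gene name. Of 47323 probes, 30113 had 1 gene in the platform annotation, 8 with several genes were left out, and 17202 are unnamed here. Each gene was read from its brightest kept probe, which gave 11926 genes. Further member probes were tested in the fit over all kept probes, and no probe's level was set against another's.

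The model held the 6 group means (lmFit, then eBayes, with 6 residual degrees of freedom), and p-values, all two-sided, were adjusted by Benjamini-Hochberg over all genes within a comparison. The method was tested on simulated data. The rule for names covers all members, up to 3 called genes of each pathway list, EGFR and the 10 genes most like the members. Further genes are named where their values limit a count or a median. Members and lists were chosen with earlier results of these data known. Over 15 pairs of groups, same-numbered samples deviated together with correlations of -0.203 to 0.749, median 0.0409, so the numbers were not taken as pairs. Alternatives changed the background correction, scaling, filter, probe rule, variance model and the arrays fitted.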

Additional observations from a re-analysis of the deposited data

Results flagged for a closer look

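The response of NSDHL to hypoxia differed between lines by a test of the difference itself. The mutant response minus the WT response was -0.94 log2 units for L858R (limma, adjusted p 0.0496) and -1.12 for E746-E750 (adjusted p 0.0276). NSDHL differed between hypoxic and aerobic cells by -0.20 in L858R and -0.38 in E746-E750 cells and by 0.75 in WT cells, and the WT aerobic arrays, at 10.55 and 10.51, were the lowest of the 12. The L858R value lies next to the threshold.

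The MSMO1 probe ILMN_1689842 differed in the same test by -5.70 for L858R (adjusted p 0.000585), where 1 of 2 hypoxic arrays detected it, and by -5.69 for E746-E750 (adjusted p 0.000542). On the brightest MSMO1 probe, ILMN_1720889, the corresponding differences were -0.47 (adjusted p 0.314) and -0.62 (adjusted p 0.221). On the same arrays, 18.1% to 45.8% of genes with several probes had probes that moved apart in the mutant hypoxic groups, against 3.08% at most in the WT hypoxic group, and the part of this in the MSMO1 values was not tested.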

How the results depend on the processing

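Over 81 results, which are 9 genes in 9 comparisons, 1971 values under other settings were computed. Of these, 1615 kept their direction and side of the threshold, 123 were no longer past it, 168 were newly past it, 17 reversed and 48 moved otherwise. Fitting the replicate number as a block left all 9 counts of called members as they were, at 4 in each line for hypoxia, and 0, 0, 2, 0, 1 and 1 in the comparisons between lines. Counts of called members, and of all genes called beside them, take both directions together. The latter are out of 11926 genes unless another number is given. The main limits are 2 arrays per group, the discordant probes of the mutant hypoxic arrays, and dim probes. The causes of the changes were not tested.

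For hypoxia in WT cells the count of called members was 2 on the authors' values, where 1391 genes were called. It was 8 with only the groups compared, array weights or the 8 aerobic and WT hypoxic arrays, where 4951, 5109 and 5640 were called. For L858R cells it was 0 with only the groups compared or array weights, where 0 and 560 genes were called (3 and 4 members at an unadjusted p under 0.05, limma). For E746-E750 cells it was 7 and 8 under the same 2 settings, where 6186 and 6380 were called. For L858R minus WT in air it was 5 with only the groups compared and 4 with array weights or the 8 arrays, where 1961, 1843 and 1375 were called. For E746-E750 minus WT in air it was 6, 4 and 5, where 2670, 2373 and 2117 were called. For L858R minus WT under hypoxia it was 1 without background correction, with median centring or a trended robust variance, where 2511, 2900 and 2498 were called. It was also 1 with no filter (2413 of 20046 genes called), detection on all 12 arrays (1780 of 7691) or the next brightest probe. It was 0 on the authors' values, with only the groups compared or with array weights (2, 0 and 1 unadjusted), where 2440, 0 and 157 were called. For E746-E750 minus WT under hypoxia it was 1 with median centring or the mean of probes, where 3180 and 2451 were called, and 1 with the next brightest probe. It was 3 with only the groups compared and 4 with array weights, where 4457 and 4978 were called.

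For the difference in response of L858R the count was 2 with median centring or the mean of probes, where 1243 and 1148 genes were called, and 2 with the next brightest probe. It was 0 on the authors' values, with trended robust variance, only the groups compared or array weights, where 683, 734, 192 and 206 were called. It was also 0 with detection on all 12 arrays, where 570 of 7691 were called. In these fits 1 or 2 members had an unadjusted p under 0.05. For the difference in response of E746-E750 the count was 0 with median centring or the authors' values (1 unadjusted), where 3097 and 703 were called. It was 2 with the mean of probes, where 1042 were called, and 2 with the next brightest probe. It was 4 with only the groups compared or array weights, where 4206 and 4456 were called.

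The gap between oxygen-using genes and the others in E746-E750 cells under hypoxia was 0.80 with the mean of probes and 0.45 with the next brightest probe. It was 0.94 without the second arrays of both mutant hypoxic groups. In other comparisons the gap was 0.23 for E746-E750 minus WT in air and 0.15 for the E746-E750 difference in response with the next brightest probe. Without the second arrays it was -0.22 for L858R minus WT and 0.41 for E746-E750 minus WT under hypoxia, and -0.13 for L858R and 0.18 for E746-E750 in the difference in response.

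With each array left out in turn, the gap for hypoxia ranged from 0.57 to 4.20 in L858R, 0.94 to 1.48 in E746-E750 and -0.27 to 0.30 in WT cells. For L858R and E746-E750 against WT it ranged over -0.12 to 0.29 and -0.33 to 0.00 in air, and over -0.22 to 3.36 and 0.41 to 1.46 under hypoxia. For the difference in response it ranged over -0.13 to 3.27 and 0.18 to 1.30. The calls of members and of all genes also moved with the array left out.

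SQLE and MSMO1 reversed under hypoxia in L858R cells to -0.13 and -0.88 with the mean of probes and to -1.13 and -3.55 with the next brightest probe. In E746-E750 cells they reversed to -0.17 and -0.96, and to -0.87 and -3.54. For L858R minus WT under hypoxia they reversed to -0.46 and -1.74, and to -1.47 and -4.74. DHCR7 in L858R cells was -2.61 without the first L858R hypoxic array and 1.19 without the second L858R hypoxic array and without both second mutant arrays. For L858R minus WT under hypoxia, LSS was 0.80 under both of these settings, and DHCR7 was 0.40 without both second arrays.

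With arrays centred on their medians, the all-gene median was -0.06 in L858R, 0.26 in E746-E750 and -0.13 in WT cells for hypoxia, against 0.09, 0.10 and -0.03 with quantile normalization. The calls over all genes were then 1589 up and 1997 down in L858R, 3410 and 1016 in E746-E750, and 538 and 1809 in WT cells, against 1920 and 1498, 1910 and 1323, and 640 and 919. The E746-E750 difference in response was then 0.02 for SQLE and 0.65 for SC5D, against -0.39 and -0.03, neither called.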
